A study of Mus musculus with 6 samples.

Results

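Smooth muscle cells anchor their actin filaments at dense plaques on the membrane and at dense bodies in the cytoplasm. Described here in mouse uterus are 9 genes grouped as actin anchorage, intermediate filament and scaffold genes of smooth muscle. They are Flna, Vcl, Lpp, Csrp1, Slmap, Smtn, Synpo2, Des and Synm, chosen by gene name out of the 26018 genes of the deposited table. The choice was made with the values of these same libraries known, so the differences of the 9 genes between the groups are given as a description and not as a test. RNA was sequenced from whole uteri of body-weight-matched female mice aged 6 weeks, with 1 library per animal. The 3 controls were Tcf21f/f, with a floxed Tcf21 gene, and the 3 conditional knockout (cKO) animals were Tcf21d/d, with that gene deleted. Which promoter drives the recombinase was not given in the sources used here. The animals were untreated, and the study asked which genes lie downstream of TCF21, a mesenchymal transcription factor of the basic helix-loop-helix class.

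Dense plaques resemble the focal adhesions of cultured cells. Integrins span the membrane, talin and vinculin tie them to actin, filamin cross-links the actin, and LIM domain proteins, which fold around zinc, serve as scaffolds between these parts. Dense bodies are held together by alpha-actinin and are linked to each other by intermediate filaments of desmin, as are the Z-discs of skeletal muscle. Several of the 9 genes are therefore active in both kinds of muscle. In bulk tissue, fewer cells of a type and less RNA per cell cannot be told apart.

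The libraries held 14584450 to 16579573 reads on genes. Tcf21 was at a normalised read count of 341.4, 151.9 and 144.1 in control replicates 1 to 3, and at 26.0, 0 and 0 in cKO replicates 1 to 3, where no read allows up to 3 reads per library. The labels give the tissue as uterus, and all 6 libraries also held skeletal muscle transcripts. The 15 skeletal muscle markers took 3.26 to 6.46% of control reads and 6.72 to 9.68% of cKO reads, and 9 slow and cardiac muscle markers took 0.148 to 0.265% and 0.206 to 0.381%. The 7 smooth muscle markers took 0.823 to 1.14% and 0.0608 to 0.0819%. Uterine mesenchyme markers took 0.0185 to 0.0497% and 0.0109 to 0.0178%. Uterine epithelium markers took 0.00106 to 0.0132% and 0.000768 to 0.00211%, and among them the gland gene Foxa2 had no read in any cKO library or in control replicate 3. Control replicate 1 held 1.32% of its reads on 8 liver markers, against at most 0.00871% in any other library, and 23.8% on mitochondrially encoded genes, against 8.10 to 13.7% in the others. Autonomic and enteric neuron markers took 0.0520% of control replicate 3 and 0.00317 to 0.00923% of the others. Intestinal epithelium markers took 0.0133% of control replicate 2 and 0.00261 to 0.00516% of the others.

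Start-site sequences were taken from RefSeq on GRCm38.p6 as windows of 250 bases before to 50 bases after each start, and all 9 genes matched, with 11 windows because Csrp1 and Lpp have 2 each. The searches covered both strands. They were for the CArG box of serum response factor, for CATTCC, which TEAD factors bind, for CANNTG, which basic helix-loop-helix factors bind, and for its form with the central bases GC. The GC box GGGCGG of Sp factors was searched too, as was TATAAA, the start-site element. Of these, CATTCC was in 4 of the 11 windows, those of Flna, Smtn, Vcl and the downstream start of Lpp, and in 14.7% of all 32851 windows. A CArG box was in 1 of the 11, that of Vcl, and in 1.63% of all windows. CAGCTG was in 1 window, that of Des, and in 16.3% of all, and CANNTG was in 7 of the 11 and in 72.3% of all. GGGCGG was in 6 of the 11 and in 35.7% of all, with matches in Vcl that overlap each other. TATAAA was in 1, that of Synpo2, and in 13.6% of all. The match in Synpo2 lies on the other strand, at -233 from the start site. The 4 windows with CATTCC and that of Des are shown up to the first annotated exon or the start site, 5′ to 3′ on the strand of the gene. Capitals mark the CArG box of Vcl, the CAGCTG of Des, and CATTCC in the others and in Vcl. Where the latter lies on the other strand it reads GGAATG.
Vcl (chr14:20929148-20929397, plus strand): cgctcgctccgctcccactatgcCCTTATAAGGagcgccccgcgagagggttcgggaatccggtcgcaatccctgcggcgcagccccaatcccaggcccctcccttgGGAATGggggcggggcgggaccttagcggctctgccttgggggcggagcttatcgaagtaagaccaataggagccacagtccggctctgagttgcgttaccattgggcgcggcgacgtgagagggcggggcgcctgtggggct
Flna (chrX:74246556-74246784, minus strand): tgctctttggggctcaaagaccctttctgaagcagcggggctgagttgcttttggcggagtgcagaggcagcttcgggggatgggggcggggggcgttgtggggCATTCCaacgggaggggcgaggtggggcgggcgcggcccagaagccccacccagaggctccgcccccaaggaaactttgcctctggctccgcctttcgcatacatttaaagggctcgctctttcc
Smtn (chr11:3539324-3539542, minus strand): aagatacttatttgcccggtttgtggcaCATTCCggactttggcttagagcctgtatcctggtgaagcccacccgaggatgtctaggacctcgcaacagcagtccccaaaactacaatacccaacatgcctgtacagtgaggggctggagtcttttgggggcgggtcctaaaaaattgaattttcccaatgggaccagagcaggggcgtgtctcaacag
Lpp (chr16:24721605-24721854, plus strand): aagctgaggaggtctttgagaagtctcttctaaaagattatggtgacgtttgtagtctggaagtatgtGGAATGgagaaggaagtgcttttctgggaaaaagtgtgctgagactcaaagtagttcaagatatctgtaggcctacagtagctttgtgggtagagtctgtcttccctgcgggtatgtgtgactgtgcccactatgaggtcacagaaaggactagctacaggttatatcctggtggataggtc
Des (chr1:75360042-75360291, plus strand): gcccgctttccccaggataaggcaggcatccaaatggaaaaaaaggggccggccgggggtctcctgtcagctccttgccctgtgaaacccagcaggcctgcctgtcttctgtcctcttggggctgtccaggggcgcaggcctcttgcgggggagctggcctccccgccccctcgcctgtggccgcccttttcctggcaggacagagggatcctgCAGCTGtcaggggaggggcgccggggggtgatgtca
These matches are a description of the letters and were not tested against the expression values.

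Flna, which encodes the actin cross-linking filamin A, was at a normalised read count of 24321, 42381 and 36305 in control replicates 1 to 3. In cKO replicates 1 to 3 it was at 6850, 7590 and 6877. Every cKO library lay below every control. The means were 34335 ± 9190 and 7106 ± 419.9 (SD, n = 3 per group), a ratio of 4.83, and the log2 difference of cKO minus control was -2.24 ± 0.23 (SE). Here and below, a ratio is of group means and a log2 difference is of mean log2 values, so they need not match. Flna occupies 74223461 to 74249820 of chromosome X (GRCm38, minus strand). No exon of another gene overlaps its 9400 exon bases.

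Vcl encodes vinculin, which couples talin at the integrin to actin. It was at 167, 910.4 and 206 in the controls and at 115, 131 and 106 in the cKO libraries. The groups did not overlap, but control replicates 1 and 3 lay close to the cKO values and replicate 2 far above them. The means were 428 ± 418 and 117 ± 12.4 (SD, n = 3 per group), and the log2 difference was -1.43 ± 0.60 (SE), or -0.66 without control replicate 2. Control replicate 2 also had the highest share of intestinal epithelium markers, 0.0133% of reads, and the part of that tissue in the Vcl value was not tested. Vcl lies on chromosome 14 at 20929398 to 21033676. The whole of its last exon, 2090 bases or 25.5% of its exon bases, is covered by exons of Ap3m1 on the opposite strand. Whether strand was used in counting was not stated, so reads in that exon cannot be assigned. Vcl rests on 96 to 1013 reads per library, and in each library it had fewer than any of the other 8 genes.

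Among the LIM domain scaffolds, Lpp encodes a relative of zyxin that is abundant at smooth muscle adhesions. Its normalised read counts were 3507, 4306 and 3462 in controls, whereas in the cKO libraries they were 832, 709 and 897. The 2 groups were far apart, with little spread inside either. The means were 3758 ± 475 and 813 ± 95.6 (SD, n = 3 per group), a ratio of 4.63, and the log2 difference was -2.21 ± 0.17 (SE). Lpp spans 599 kb of chromosome 16, from 24393507 to 24992578.

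Csrp1, a small cysteine-rich LIM protein that binds alpha-actinin and zyxin, had the largest difference of the 9 genes. It was at 3602, 16767 and 12079 in controls and at 1043, 941 and 1039.7 in cKO animals. Control replicate 1 was far below the other controls and still above every cKO library. The means were 10816 ± 6673 and 1008 ± 57.8 (SD, n = 3 per group), a ratio of 10.7, and the log2 difference was -3.16 ± 0.54 (SE). Leaving out control replicate 1 gave -3.82 and leaving out control replicate 2 gave -2.71. Csrp1 lies on chromosome 1 at 135720061 to 135752232, with no overlapping exons of other genes.

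Slmap encodes a membrane-anchored protein that recruits the striatin phosphatase and kinase complex. Its values were 2593, 3326 and 2741 in controls, whereas in the cKO libraries they were 841, 649 and 724. Every cKO library was below every control, with means of 2887 ± 388 and 738 ± 96.5 (SD, n = 3 per group). The log2 difference was -1.97 ± 0.17 (SE). The gene lies on chromosome 14 at 26413168 to 26534931 and has 16 annotated transcripts, which gene-level reads do not separate.

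Smtn encodes smoothelin, an actin-binding protein of contractile smooth muscle. It was at 6838, 6847 and 7279 in controls and at 2642, 2554 and 2056 in cKO animals. The 3 controls were nearly equal, and all cKO libraries lay well below them. The means were 6988 ± 252 and 2417 ± 316 (SD, n = 3 per group), a ratio of 2.89, and the log2 difference was -1.54 ± 0.16 (SE). Exons of Gm11946 on the opposite strand cover 16.3% of the Smtn exon bases on chromosome 11 (3517523 to 3540612). Gm11946 itself was at 14.6, 1102 and 2640.5 in controls and at 24.2, 6.83 and 4.42 in cKO animals. The part of this overlap in the Smtn values was not tested.

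Synpo2 encodes an actin-bundling protein of dense bodies and Z-discs. It was at 3181, 7554 and 6039 in controls and at 3055, 3116 and 4136 in cKO animals. Control replicate 1 fell among the cKO values, so the groups overlapped. The means were 5591 ± 2220.5 and 3435 ± 607 (SD, n = 3 per group), and the log2 difference was -0.63 ± 0.31 (SE), or -0.99 without control replicate 1 and -0.37 without control replicate 2.

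Des encodes desmin, the intermediate filament protein of all muscle types. It was at 60998, 74438 and 82710.3 in controls and at 60821, 92182 and 75687 in cKO animals. The groups overlapped fully. The means were 72716 ± 10958 and 76229.9 ± 15687 (SD, n = 3 per group), and the log2 difference was 0.06 ± 0.25 (SE) with a 95% interval from -0.49 to 0.61. It turned to -0.06 without control replicate 1 and to -0.09 without cKO replicate 2. Des lies on chromosome 1 at 75360329 to 75368579. Its reads made up 45.7 to 57.3% of the reads of the 9 genes in controls and 77.6 to 83.0% in cKO libraries.

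Synm encodes synemin, a large intermediate filament protein that assembles with desmin and ties it to vinculin and to the dystrophin complex. It was at 1302, 6272 and 7452 in controls and at 2146, 3203 and 3025 in cKO animals. Control replicate 1 was the lowest of the 6 libraries, while the other controls were the highest. The means were 5009 ± 3264 and 2791 ± 566 (SD, n = 3 per group), and the log2 difference was -0.52 ± 0.68 (SE). It was -1.31 without control replicate 1 and -0.06 without control replicate 3.

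**Figure D1:**
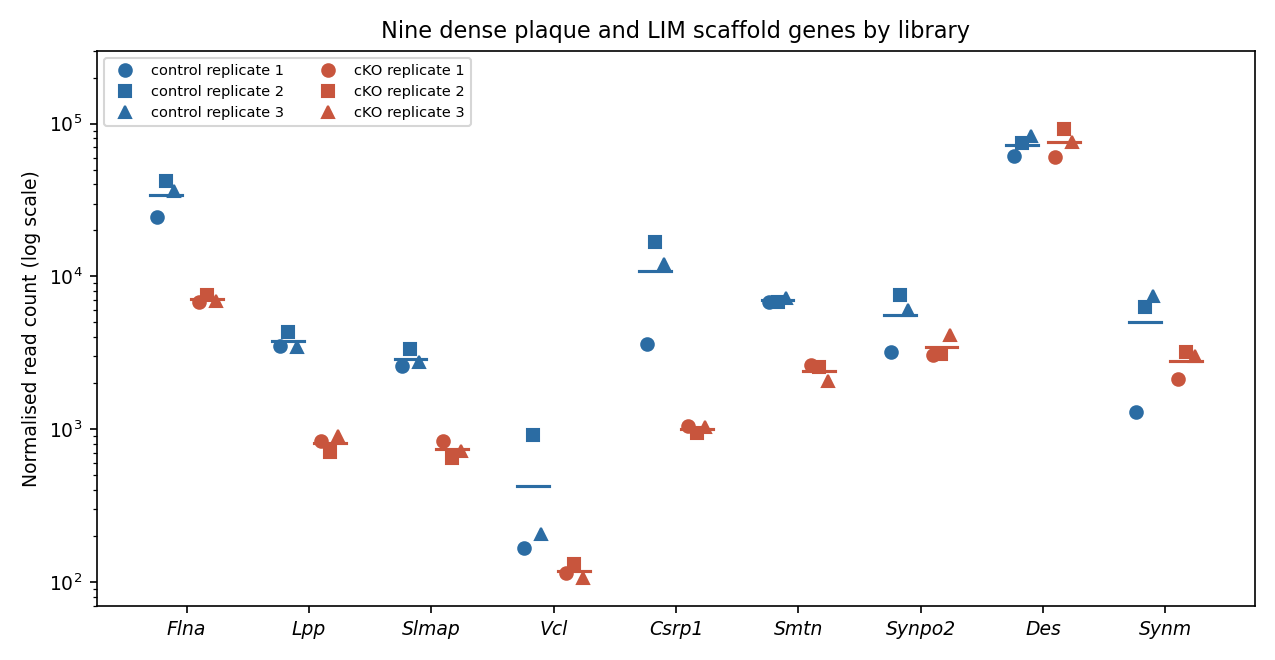
Normalised read count (log axis) of the 9 genes in each of the 6 libraries; blue symbols are controls, red symbols cKO animals, the symbol shape gives the replicate and bars give group means. Flna, Lpp, Slmap, Vcl, Csrp1 and Smtn have every cKO library below every control, and Synpo2, Des and Synm overlap.

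The groups did not overlap in 6 of the 9 genes, all lower in cKO animals, against 10.5% of the 16314 genes tested. Lpp, Flna, Slmap and Smtn passed the threshold as lower and 5 genes did not (limma, Benjamini-Hochberg adjusted p under 0.05 over all genes), where 0.889% of all genes tested passed as lower. Since the genes were chosen with this comparison known, nothing is read from these counts. edgeR's quasi-likelihood test on the recovered reads also passed Csrp1, and DESeq2 passed Csrp1 and Vcl too, with 0.736% and 3.72% of all genes passing as lower. Control replicate 1 had the highest shares of liver and mitochondrially encoded transcripts. Without it 7 of the 9 passed, Csrp1, Synm and Synpo2 being added, and 2.03% of all genes passed as lower. With control replicate 2 as the only control, a choice made after seeing the data, 8 of the 9 passed, all but Des, with 2.79% of all genes. That fit assumes that the lone control varies like the cKO animals. The median log2 difference of the 9 genes was -1.54, and that of all genes tested was 0.002. The authors' deposited table lists log2 fold changes of -3.42 for Csrp1, -1.87 for Vcl, -0.84 for Synm and 0.07 for Des.

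All 7 smooth muscle markers fell in the cKO uteri, from -2.96 for Acta2, the smooth muscle alpha-actin gene, to -6.86 for Actg2, the smooth muscle gamma-actin gene. Csrp1 was the only one of the 9 genes whose log2 difference was as low as those of any of these markers, and it lay below 2 of the 7. The 14 tested skeletal muscle markers were higher in the cKO mean, between 0.70 and 1.53 on the log2 scale. Limma, edgeR and limma-voom called 0 of them and DESeq2 called 6, while 12 were higher at an unadjusted p under 0.05. Of all genes, 13.7% had an unadjusted p under 0.05 by limma in either direction, and DESeq2 passed 1.8% as higher; these shares are the background of the counts given for other lists too. Of 9 slow and cardiac muscle markers limma, edgeR and limma-voom called 0 and DESeq2 called 1, with 5 at an unadjusted p under 0.05. Des, Synm, Synpo2, Vcl, Slmap and Flna are also transcribed in striated muscle, and the part of skeletal muscle RNA in their values was not tested. Endothelial markers took 0.0435 to 0.0678% of control reads and 0.0563 to 0.0677% of cKO reads. Pericyte markers took 0.0507 to 0.175% and 0.0545 to 0.0681%.

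**Figure D2:**
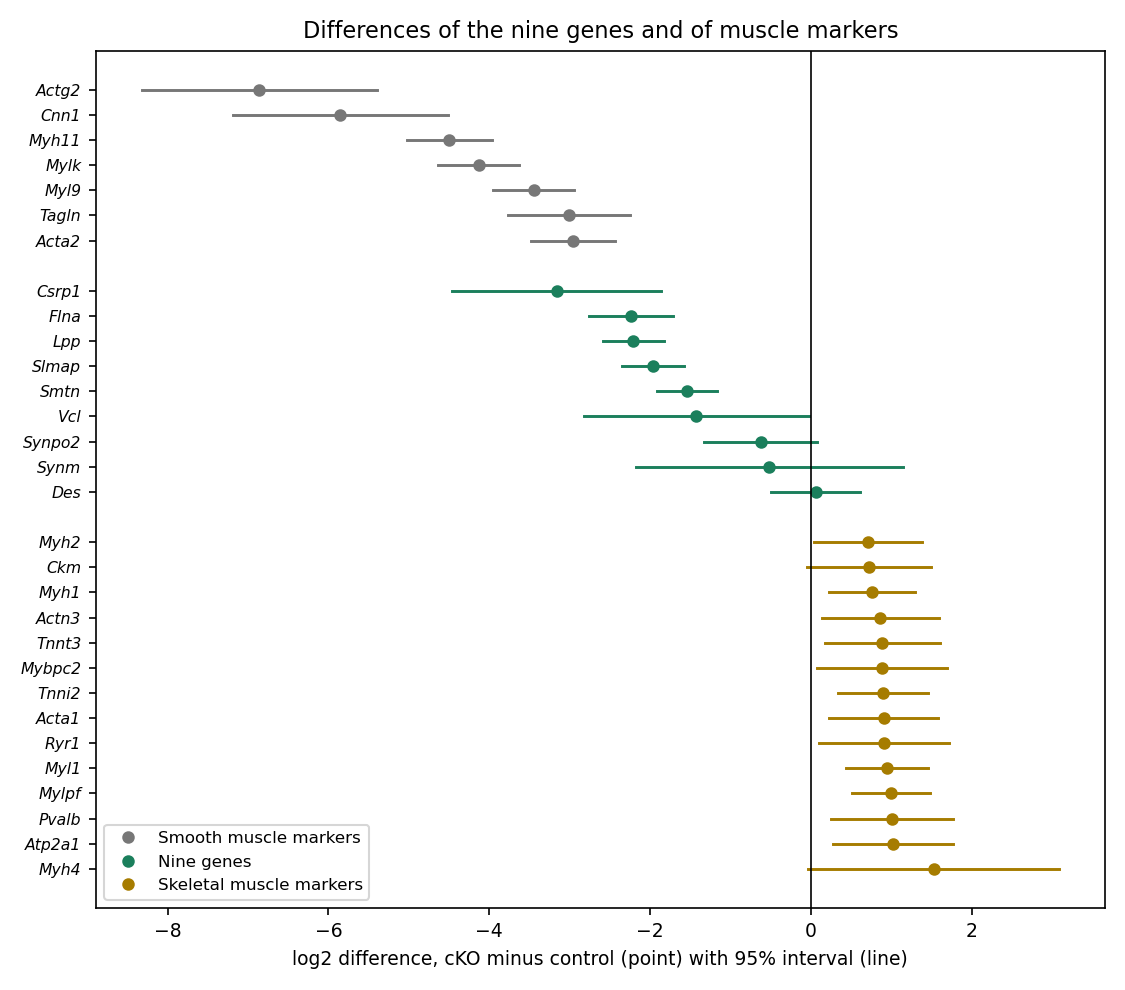
Log2 difference of cKO minus control with its 95% interval (horizontal axis) for the 7 smooth muscle markers, the 9 genes and 14 skeletal muscle markers. The 9 genes range from -3.16 for Csrp1 to 0.06 for Des. Smooth muscle markers range from -6.86 to -2.96, which includes Csrp1, and skeletal muscle markers from 0.70 to 1.53.

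The control libraries varied unequally across the 9 genes. Control replicate 1 was the lowest control in 8 of them, all but Lpp, against 34.9% of all genes tested. The standard deviation of log2 values over the controls was 0.05 for Smtn, smaller than that of all but 1.96% of genes tested. For Lpp, Slmap and Des it was 0.18, 0.19 and 0.22, and for Flna and Synpo2 it was 0.41 and 0.65. It was 1.17 for Csrp1, 1.33 for Vcl and 1.39 for Synm, above that of 90.9, 92.9 and 93.5% of genes tested. In the cKO libraries the same quantity was 0.08 for both Csrp1 and Flna and 0.15 for Vcl, and at most 0.31, for Synm. Csrp1 and Vcl, wide over the controls, were thus narrow over the cKO animals.

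**Figure D3:**
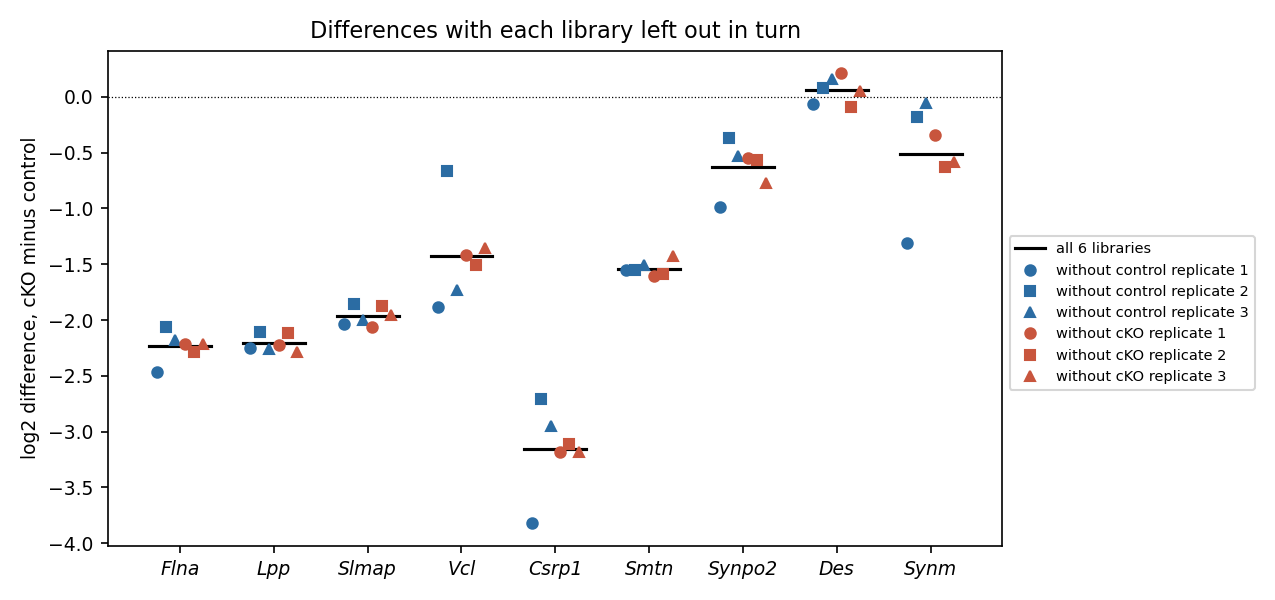
Log2 difference of cKO minus control for each of the 9 genes with all 6 libraries (bars) and with each library left out in turn (symbols). Values for Lpp stay between -2.28 and -2.11 and those for Smtn between -1.61 and -1.43, while Vcl ranges from -1.88 to -0.66 and Synm from -1.31 to -0.06.

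Levels between genes were compared per kilobase of exon. In controls Des was highest at 19370 ± 2919 normalised reads per kb (SD, n = 3), followed by Csrp1 at 5529 ± 3411 and Flna at 3653 ± 978, whose ranges overlapped. Smtn came next at 1595 ± 57.6, apart from its neighbours. Synm at 631 ± 411, Synpo2 at 427 ± 169.6 and Slmap at 358 ± 48.1 overlapped in turn, and Lpp at 170.5 ± 21.5 and Vcl at 52.2 ± 51.1 were lowest. In cKO libraries Des was at 20306 ± 4179 per kb and no other gene exceeded the mean of 756 ± 44.7 for Flna. Csrp1 stood there at 515 ± 29.6, overlapping Smtn at 552 ± 72.1. Synm at 352 ± 71.4 and Synpo2 at 262 ± 46.4 also overlapped, and Slmap at 91.6 ± 12.0, Lpp at 36.9 ± 4.34 and Vcl at 14.3 ± 1.52 kept the lowest places, each apart from the next.

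Within each library, ratios of these levels set several of the 9 genes beside related genes, some of them of striated muscle. Flna was 3.15, 5.26 and 4.53 times the level per kb of Flnc, the filamin of Z-discs, in controls and 0.798, 0.707 and 0.561 times in cKO libraries. Csrp1 was 0.540, 5.05 and 2.19 times the level of Csrp3, the muscle LIM protein of striated muscle, in controls and 0.130, 0.119 and 0.0832 times in cKO libraries. Both ratios were lower in every cKO library than in every control. Smtn was 2.32 to 3.65 times the level of Smtnl2, a smoothelin-like gene, in controls and 0.402 to 0.520 times in cKO libraries. Synpo2 was 0.986 to 1.88 times the level of Synpo2l in controls and 0.389 to 0.556 times in cKO libraries. The ratio of Des to Vim, the mesenchymal intermediate filament gene, overlapped between controls (4.43 to 7.18) and cKO libraries (3.30 to 6.54). Csrp1 was also 2.40 to 20.7 times the level of Csrp2, which smooth muscle uses too, in controls and 1.00 to 1.24 times in cKO libraries. Such ratios do not depend on the scaling of the libraries, and they contain the differences of the 9 genes already given. They also contain those of the related genes, with log2 differences of 0.90 for Csrp3, 0.82 for Synpo2l and -0.17 for Csrp2. The part of skeletal muscle RNA in the ratios was not tested.

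**Figure D4:**
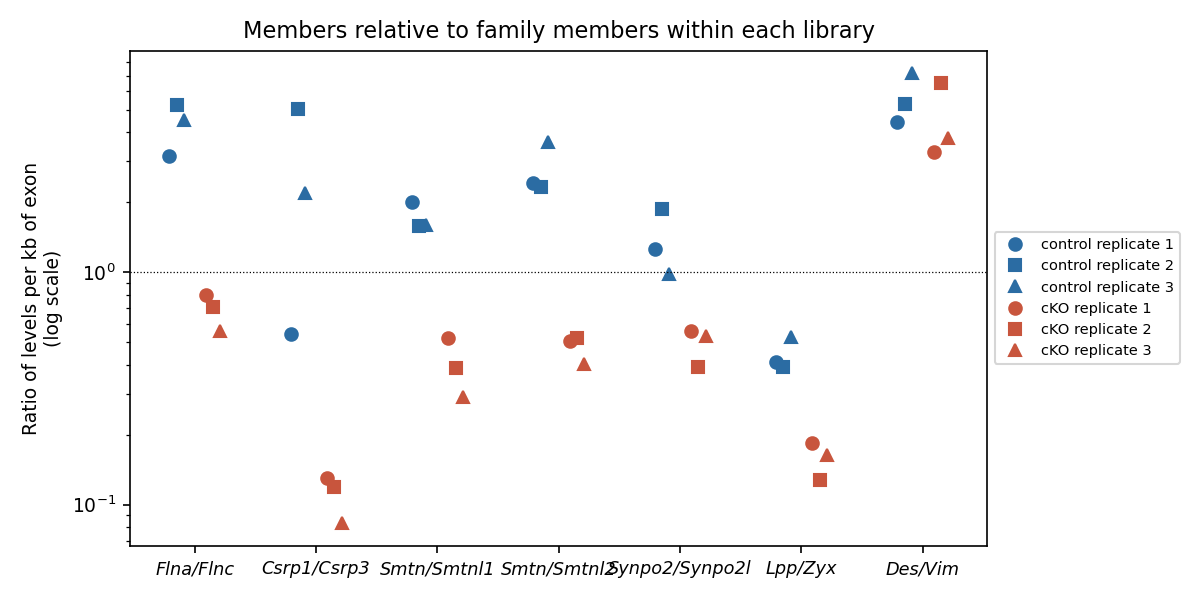
Ratio of the level per kb of exon (log axis) of 6 of the 9 genes to a related gene within each of the 6 libraries; blue is control, red is cKO and the dotted line marks equal levels. The ratio of Flna to Flnc lies between 3.15 and 5.26 in controls and between 0.561 and 0.798 in cKO libraries, and that of Des to Vim overlaps.

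Other genes of the same structures are described as 9 lists of 94 genes in all, of which 91 were tested. The lists too were chosen with earlier results of these data known, so their counts are a description and not an independent test. Of the 91 genes, 6 fell, 1 rose and 84 did not pass by limma. Over all genes tested, 0.889% passed as lower and 0.276% as higher. The median log2 difference over the lists was -0.03. Without cKO replicates 1, 2 and 3 in turn, 1, 2 and 0 of the 91 passed as lower, and 15, 15 and 17 were lower at an unadjusted p under 0.05, beside 6.46, 5.48 and 5.49% of all genes tested in these fits. In the same libraries skeletal muscle markers took 4.74 ± 1.61% of control and 8.55 ± 1.59% of cKO reads (SD, n = 3).

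Among 20 linkers between integrin and actin, 3 fell and 17 did not pass, with a median log2 difference of -0.35. Tgfb1i1, which encodes the paxillin-like LIM protein Hic-5, was at 5645, 3506 and 3339 in controls and at 1396, 1340 and 1113 in cKO animals. The log2 difference of Tgfb1i1 was -1.66 ± 0.22 (SE; limma adjusted p = 0.0096). Lims2, the LIM protein PINCH2 that binds integrin-linked kinase, fell from 1604 ± 243 to 626 ± 81.5 (SD, n = 3 per group; limma adjusted p = 0.00895). Parva, the parvin that completes this complex, fell from 2475 ± 146 to 1080.3 ± 127 with the same adjusted p. The log2 differences of Lims2 and Parva were -1.35 and -1.20. Tln1, the talin that binds vinculin, was at 4876 ± 588 and 4437 ± 128 and did not pass.

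Of the 6 zyxin family and filamin-binding LIM proteins, 1 fell. Fblim1, which encodes the filamin-binding migfilin, went from 921 ± 143 to 467 ± 75.5 (SD, n = 3 per group), a log2 difference of -0.98 ± 0.19 (SE; limma adjusted p = 0.0491), and lost its call under 11 of 19 alternatives. Zyx, the zyxin gene, had a log2 difference of -0.72 ± 0.21 and Limd1 one of -0.27 ± 0.15, and neither passed by limma (adjusted p of 0.162 and 0.464). Zyx passed by DESeq2 (adjusted p = 0.0325) and without both control replicates 1 and 3. Trip6, of the same family as Lpp, had one of -0.03 ± 0.19, which took the other sign under 4 of 19 alternatives.

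Among 13 alpha-actinins, PDZ-LIM and palladin proteins of dense bodies and Z-discs, 2 fell and 11 did not pass. Actn1, the alpha-actinin of dense bodies and focal adhesions, was at 2947, 4277 and 3123 in controls and at 1123, 1226 and 1435 in cKO animals. Its log2 difference was -1.44 ± 0.19 (SE; limma adjusted p = 0.00913). Palld, the actin-bundling palladin, fell from 4799 ± 310.3 to 2233 ± 141 (SD, n = 3 per group), a log2 difference of -1.10. Ldb3, a PDZ-LIM protein of skeletal muscle Z-discs, had a log2 difference of 0.70 ± 0.21, which passed by DESeq2 (adjusted p = 0.025) and not by limma (adjusted p = 0.172). The median of this list was 0.32, on the other side of 0 from its 2 called genes.

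Smtnl2, a smoothelin-like gene, was the 1 gene of the lists that rose, among 4 synaptopodin and smoothelin relatives. It was at 2474, 2573 and 1738 in controls and at 4571, 4281 and 4458 in cKO animals, a log2 difference of 0.99 ± 0.19 (SE; limma adjusted p = 0.0442). Smtnl2 lost this call under 10 of 19 alternatives, edgeR's test among them. Smtnl1, Synpo2l and Synpo had log2 differences of 0.60 ± 0.19, 0.82 ± 0.31 and 0.33 ± 0.19 and did not pass by limma or DESeq2. Without control replicate 1 the value of Synpo2l was 0.50 and that of Synpo was 0.20. Smtn and Smtnl2 thus lay on opposite sides of 0. The log2 differences of Smtnl2 and Synpo2l were within the range of the skeletal muscle markers, 0.70 to 1.53, and those of Smtnl1 and Synpo were below it. The part of skeletal muscle RNA in the values of these relatives was not tested.

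Limma called 0 of 8 tested cysteine-rich and four-and-a-half LIM proteins, edgeR and limma-voom called 0 and DESeq2 called 1, as higher, with 2 at an unadjusted p under 0.05 (13.7% of all genes). Csrp3 was at 9104, 4537 and 7523 in controls and at 10976, 10774 and 17065 in cKO animals, a log2 difference of 0.90 ± 0.29 (SE). Csrp2, which smooth muscle also uses, had one of -0.17 ± 0.24, which was 0.11 without control replicate 1. Crip1 had a log2 difference of 0.52 ± 0.21 and Fhl2 one of -0.80 ± 0.36. Among 6 filamins and partners limma, edgeR, limma-voom and DESeq2 called 0, with 1 at an unadjusted p under 0.05, a share near the 13.7% of all genes. It was Filip1, a filamin-interacting protein gene, at -0.60 ± 0.18. Flnc was at 0.39 ± 0.19 and Rflnb at 0.41 ± 0.21, or 0.20 without control replicate 2.

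Of 14 tested intermediate filament proteins and linkers limma, edgeR and limma-voom called 0 and DESeq2 called 4, of which 3 as lower, with 4 at an unadjusted p under 0.05 by limma (13.7% of all genes). Plec, which encodes the cytolinker plectin that attaches desmin filaments, had a log2 difference of 0.55 ± 0.17 (SE). Vim was at 0.41 ± 0.21 and Nes, which encodes nestin, at 0.49 ± 0.34. Nes was at 0.84 without cKO replicate 1 and at 0.16 without cKO replicate 2. Eppk1 and Krt19, a linker and a keratin of epithelia, were at -2.60 ± 0.69 and -1.58 ± 0.44. Uterine epithelium markers took 0.00623 ± 0.00630% of control reads and 0.00126 ± 0.000742% of cKO reads (SD, n = 3 per group), and the part of epithelium in these values was not tested.

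In the complex that Slmap recruits, limma, edgeR, limma-voom and DESeq2 called 0 of 12 genes, and none had an unadjusted p under 0.05 by limma. The median of the 12 log2 differences was -0.03. Strip2 was at -0.94 ± 0.73 (SE), but at -1.54 without cKO replicate 1 and -0.36 without cKO replicate 3. Cttnbp2nl was at -0.38 ± 0.20 and Mob4 at -0.26 ± 0.17, or -0.13 without control replicate 3. Among 8 genes of caveolae, the membrane pits that lie between dense plaques, limma, edgeR and limma-voom called 0 and DESeq2 called 1, with 4 at an unadjusted p under 0.05 (13.7% of all genes). Cav1, the main caveolin of smooth muscle, was at -0.54 ± 0.16, Cavin2 at -0.43 ± 0.16 and Cavin4, of striated muscle, at 0.66 ± 0.19.

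**Figure D5:**
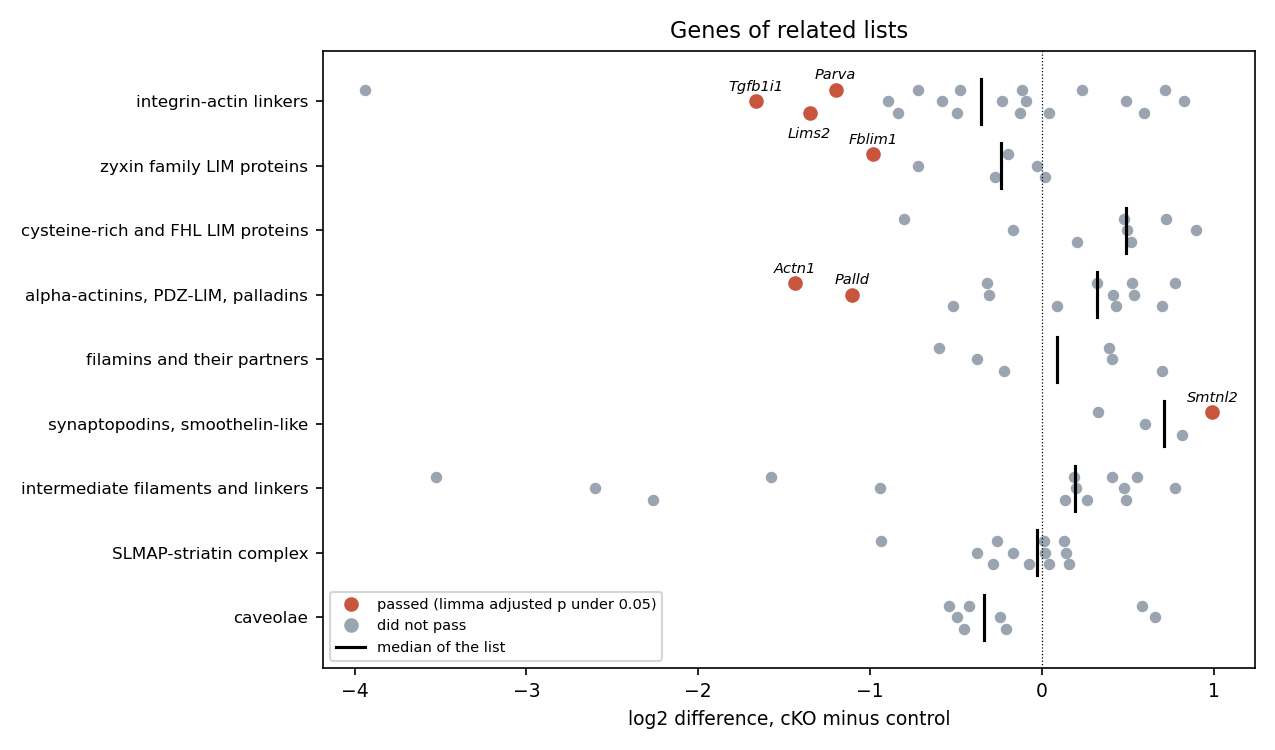
Log2 difference of cKO minus control (horizontal axis) of the tested genes of 9 lists (rows); red points passed by limma, grey points did not, and black bars give list medians. The 6 genes that fell are Tgfb1i1, Lims2, Parva, Fblim1, Actn1 and Palld, and the 1 that rose is Smtnl2.

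The mean profile of the 9 genes, taken over their standardised log2 values, was highest in control replicates 2 and 3, at 1.11 and 0.85, lay at -0.04 in control replicate 1 and ran from -0.82 to -0.51 in the cKO libraries. Pearson's r of single genes with it over the 6 libraries was 0.985 for Csrp1, 0.955 for Flna, 0.707 for Synm and 0.216 for Des, and these genes are part of the profile. Of the other protein-coding genes averaging 1 CPM or more, the closest were Nedd4l, a ubiquitin ligase gene, and Nt5dc1 (r of 0.994 each), Mapre1, a microtubule end-binding protein gene (0.993), Ssbp2 and Uri1 (0.992 each), and the clock gene Cry2 (0.990). The 6 libraries fall into 2 groups, so these coefficients describe this pattern only. Nedd4l was at 823, 1244 and 1165 in controls and at 630.0, 747 and 663 in cKO animals, a much smaller difference than that of Csrp1.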

How the data were processed

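Trizol was used to extract total RNA of 6 uteri, each a library from a separate animal, per the labels. The submitters' processing notes name HISAT2, SAMtools and featureCounts and give the build as GRCm39. Of 26006 deposited genes found in GENCODE vM21 (GRCm38), 25223 had identical coordinates, so coordinates are read as GRCm38. Signal values as deposited by the authors are reads per gene over a size factor. Within 0.01 reads, 100% of the values in every library were multiples of a single step, so whole reads could be recovered. The table also holds the authors' log2 fold changes and p-values.

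The design foresaw limma for scaled values: log2(value + 1) was fitted by limma 3.58.1 under R 4.3.3 using trended, robust empirical Bayes over 16314 genes kept by filterByExpr of edgeR 4.0.16, with Benjamini-Hochberg adjustment at 0.05. The added 1 understates changes of low genes. Recovered reads were tested with edgeR, DESeq2 1.42.0 and limma-voom as alternatives. Scripts were tested on simulated data. The genes and lists were chosen with earlier results of these data known. Named are the 9 genes, Tcf21, of each list the called genes or the 3 with the smallest p, family members, and the 6 genes with the most similar profile. Ilk, Tnnc2, Tagln, Tln1, Fermt1, Gm11946 and Foxa2 fall outside that rule or its counts and were chosen after their values were seen. The result of 1 named family member is not reported here. No SD or interval covers errors of the authors' counting.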

Additional observations from a re-analysis of the deposited data

How the results depend on the processing

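Lpp, Flna, Slmap and Smtn passed as lower under all 19 alternatives, with log2 differences over them from -2.41 to -2.11, -2.58 to -2.07, -2.18 to -1.86 and -1.61 to -1.43. The number of the 9 genes passing as lower was 4 with all libraries, 4 to 7 with each library left out in turn, and 8 without both control replicates 1 and 3. The 9 genes were chosen with this comparison known, and every alternative uses the same libraries, so nothing is read from these counts. Of all genes tested, 0.889% passed as lower with all libraries and 2.03% without control replicate 1. Over all genes, leaving out 1 library gave 42 to 347 lower and 1 to 117 higher genes. It gave 0 to 9 lower and 0 to 3 higher genes in the related lists. Without both control replicates 1 and 3, 504 genes were lower and 271 higher, 15 and 5 of them in the lists. DESeq2 called 578 lower and 280 higher genes (13 and 6 in the lists) and limma-voom 82 and 19 (0 higher in the lists). Limma without trend and robust fitting called 56 lower and 0 higher, with 1 lower and 0 higher in the lists. That 1 gene was Fermt1, and none of the 6 list genes called as lower in the main fit passed there. Over the 19 alternatives Palld lost its call under 5 and Actn1 under 4. Parva, Lims2 and Tgfb1i1 lost theirs under 3 each. With no filter 82 genes were higher, 2 in the lists. Scaling by library totals gave 12 higher and 119 lower genes, so that 9.16% of calls were higher in place of 23.7%, and 0 higher in the lists. Totals without muscle markers gave 96 lower and 13 higher (11.9% of calls), with 0 higher in the lists. edgeR called 0 higher genes in the lists. With a replicate block 149 genes were lower and 34 higher, 0 higher in the lists. Same-numbered libraries had correlations of deviations of 0.008, -0.176 and 0.044, and differently numbered ones ran from -0.121 to 0.099. These values gave no sign of pairing by number, and they cannot exclude it. Values of 3 named genes that did not pass turned sign. Des was between -0.09 and 0.21 with each library left out in turn, negative without control replicate 1 (-0.06) and without cKO replicate 2. Trip6 was at -0.03 with all libraries, at 0.0014 with totals without muscle markers, between -0.16 and 0.095 with each library left out in turn (0.07 without control replicate 1), and at 0.13 without both control replicates 1 and 3. Csrp2 was at -0.17 with all libraries, between -0.33 and 0.11 with each left out in turn, and at 0.15 without both. The cause of these changes was not tested. Levels per kb kept their median within the spread of the controls with the longest transcript and with exon bases free of other genes.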

Other observations

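Some genes of the lists had few reads where exons of another gene cover theirs on the opposite strand. Tnnc2, the fast skeletal troponin C gene, was at 0 to 8.90 normalised reads in the 6 libraries, while Tnni2, the troponin I gene of the same fibres, was at 55935 to 140910. Opposite-strand exons cover 74.0% of the exon bases of Tnnc2. They cover 89.7% of Ilk, the integrin-linked kinase gene that binds Lims2 and Parva, which was at 17.6 to 53.9. They cover 67.9% of Tagln, the smooth muscle transgelin gene, which was at 415 to 639 in controls and 40.9 to 94.6 in cKO animals. Vcl, with its last exon covered, had the lowest level per kb of the 9 genes. Strand settings of the counting were not given in the sources used here, and the part of this overlap in the values was not tested.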
